A study of Mus musculus with 4 samples.

Results

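The collagen genes were examined in cortical nuclei of Gclc-KO mice, by cell class and by age. A gene was counted as a collagen gene where its symbol has the form Col, a number, the letter a and a number, which 44 of the 32285 genes in the matrices have. Of these, 43 had 50 or more UMIs (unique molecular identifiers, 1 for each captured RNA molecule) over all nuclei and are described singly. Just above that limit stood Col1a1 with 72 UMIs and Col1a2 with 85, and the single gene below it was Col3a1 with 41.

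The mice carried floxed Gclc (GCLC, the catalytic subunit of the enzyme that starts glutathione synthesis) together with CaMKII-Cre, a driver of forebrain excitatory neurons, and the floxed line is on a C57BL/6NTac background. The 4 libraries came from the cerebral cortex at 3 months of age (3M replicates 1 and 2) and at 6 months (6M replicates 1 and 2). All 4 were knockouts, so every comparison is within the knockout, and 2 libraries per age set the spread that the p-values by age measure. The tissue was taken where rod-shaped microglia were abundant, the nuclei were DAPI-positive singlets sorted by flow cytometry, and the libraries were made with the 10x Genomics 3′ v3.1 kit. Wherever 4 library values follow each other, the 3M replicates stand first and the 6M replicates last.

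Collagens are proteins whose chains wind into a triple helix. Fibrillar types form fibres, type IV forms the sheet of basement membranes around vessels and under the pia, type VI forms beaded filaments, FACIT types attach to fibres and other matrix, and transmembrane types sit in the plasma membrane and can be shed. In the brain the fibrillar types are best known from meninges and large vessels, while neurons and glia make several non-fibrillar types that have been tied to synapse formation and axon guidance.

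After the authors' filter 30515 of 30784 nuclei remained, with 59262228 to 65894316 UMIs per library, of which 34544 to 40329 were collagen UMIs. Nuclei were gated by marker genes into 12 classes, and 4388 nuclei (14.4%) fell in none. No collagen gene was a marker. Each class had the highest summed level of its own markers, and only the mural class lacked any of its 12 markers (Acta2 and Tagln, at 0 UMIs). Pairs of libraries shared 12 to 19 barcodes. Gclc stood at 42.6, 33.3, 34.1 and 36.4 CPM (UMIs per 1000000 UMIs of the class) in excitatory neurons and at 48.5, 40.5, 39.1 and 42.1 CPM in interneurons, and 3′ counts with no wild-type library do not measure the deletion.

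Type IV genes lie in head-to-head pairs, and the sequences at the starts of 2 such pairs are shown first. Among the 6 larger classes, Col4a1 and Col4a2 were both highest in excitatory neurons and Col4a5 and Col4a6 both in astrocytes. The windows of Col4a3 (153 UMIs in all) and Col4a4 (619) are not shown. In GRCm38, Col4a1 is at chr8:11198423-11312826 on the reverse strand and Col4a2 at chr8:11312805-11449287 on the forward strand. Their RefSeq promoter windows (250 bases before the start to 50 after, GRCm38.p6) are chr8:11312777-11313076 and chr8:11312555-11312854. The start sites lie 21 bases apart, and the 78 bases that both windows hold are in capitals, each window being read 5′ to 3′ on its gene's strand.
Col4a1: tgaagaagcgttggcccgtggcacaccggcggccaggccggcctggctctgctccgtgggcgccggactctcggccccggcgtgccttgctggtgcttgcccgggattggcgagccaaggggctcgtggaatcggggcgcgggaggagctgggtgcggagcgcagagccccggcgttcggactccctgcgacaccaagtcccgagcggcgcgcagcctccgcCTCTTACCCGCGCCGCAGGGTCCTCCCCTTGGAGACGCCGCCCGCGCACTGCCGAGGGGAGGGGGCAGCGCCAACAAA
Col4a2: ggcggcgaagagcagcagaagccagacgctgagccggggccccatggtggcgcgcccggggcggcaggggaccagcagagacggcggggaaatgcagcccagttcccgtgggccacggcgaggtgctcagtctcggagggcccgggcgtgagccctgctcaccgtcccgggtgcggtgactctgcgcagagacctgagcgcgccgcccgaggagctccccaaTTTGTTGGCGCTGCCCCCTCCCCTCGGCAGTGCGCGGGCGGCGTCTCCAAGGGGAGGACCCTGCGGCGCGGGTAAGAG

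Col4a6 and Col4a5 form such a pair on chromosome X, with start sites 1343 bases apart and windows that share no base. The window of Col4a5 is chrX:141475169-141475468 on the forward strand and that of Col4a6 is chrX:141474027-141474326 on the reverse strand. Capitals mark the GC box, GGGCGG on either strand.
Col4a5: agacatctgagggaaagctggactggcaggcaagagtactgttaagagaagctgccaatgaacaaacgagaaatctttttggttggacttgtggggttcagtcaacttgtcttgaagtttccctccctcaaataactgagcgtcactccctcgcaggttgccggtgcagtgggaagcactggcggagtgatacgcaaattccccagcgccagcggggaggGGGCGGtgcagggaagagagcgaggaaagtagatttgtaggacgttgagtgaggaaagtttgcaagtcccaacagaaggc
Col4a6: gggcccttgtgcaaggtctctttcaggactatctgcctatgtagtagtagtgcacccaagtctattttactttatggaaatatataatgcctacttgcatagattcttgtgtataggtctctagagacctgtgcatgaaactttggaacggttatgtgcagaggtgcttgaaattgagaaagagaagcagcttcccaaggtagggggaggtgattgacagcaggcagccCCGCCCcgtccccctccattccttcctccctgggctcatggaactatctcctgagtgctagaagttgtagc
A GC box was in all 4 windows and in 35.7% of the 32851 RefSeq promoters. CCAAT, on either strand, was in the windows of Col4a1, Col4a2 and Col4a5 and in 37.4% of all promoters. TATAAA, on either strand, was in none of the 4 and in 13.6% of all promoters. The promoter table matched 35 of the 44 collagen genes, and a match is a description of the letters in the window.

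Summed over the 44 genes, collagen UMIs were highest in interneurons among the 6 classes with at least 10 nuclei in every library. Interneurons had 1010, 954, 1060 and 1090 CPM (mean 1030 ± 59.5, SD, n = 4). OPCs (oligodendrocyte precursor cells) had 626 ± 26.4 CPM, excitatory neurons 524 ± 13.4, microglia 439 ± 24, astrocytes 413 ± 53.4 and oligodendrocytes 232 ± 21.1 CPM (SD, n = 4 each). Every interneuron library lay above, and every oligodendrocyte library below, all libraries of the other classes among these 6, while microglia and astrocytes differed by less than their spread. The small class of vascular leptomeningeal cells (VLMCs), with 9, 6, 17 and 16 nuclei, stood higher, at 3680, 5050, 4100 and 3520 CPM.

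The families took different shares of these sums, with gene length not accounted for. FACIT genes held 44.6% of the collagen UMIs of interneurons and 46.6% of those of oligodendrocytes. Fibrillar genes held 36.7% in OPCs and 35.2% in microglia, against 13.9% in excitatory neurons. Some of these shares came mostly from 1 gene. Col19a1 gave 10655 of the 11960 FACIT UMIs of interneurons, and Col27a1 889 of the 1094 fibrillar UMIs of microglia. Others were more spread: Col16a1 gave 418 of the 1285 FACIT UMIs of oligodendrocytes, and Col11a1 477 of the 1027 fibrillar UMIs of OPCs. Type IV genes held 25.7% in excitatory neurons and 25.8% in astrocytes. Type VI genes held 27.2% in neurons of striatal type, which stood in 3 libraries, and 1.25% in interneurons.

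**Figure D1:**
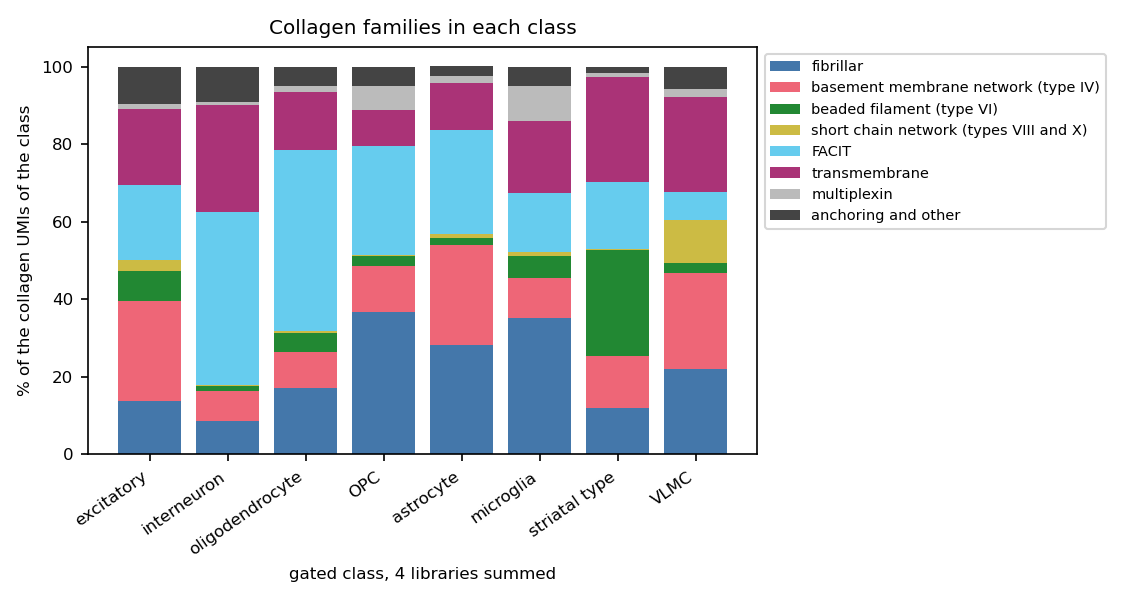
Share of the collagen UMIs of a class (%, vertical axis) held by each of 8 collagen families, for 8 gated classes with the 4 libraries summed. FACIT genes (light blue) take 44.6% in interneurons and 46.6% in oligodendrocytes, and type VI genes (green) 27.2% in neurons of striatal type.

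Each class was compared with all other gated nuclei of the same libraries by edgeR's quasi-likelihood test, with the library as a block and p-values adjusted by the Benjamini-Hochberg method over the whole gene table. In excitatory neurons 14 collagen genes were higher and 16 lower of 42 tested, beside 31.9% of all genes higher and 35.8% lower. In interneurons 9 were higher and 18 lower of 38, beside 27.1% of all genes higher and 29.2% lower. In OPCs 11 were higher and 13 lower of 40, beside 18.5% of all genes higher and 23% lower. Large shares of all genes passed in these comparisons, so a call alone does not set a collagen gene apart. Excitatory neurons held 158951646 of the 250925711 UMIs of all nuclei and weigh most in the sums of other nuclei. A class called higher is therefore not always the class with the highest mean.

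In oligodendrocytes 6 collagen genes were higher and 24 lower of 39 tested, beside 31.9% of all genes higher and 35.6% lower, and the median log2 difference was -1.71 for the collagen genes tested and -0.09 for all genes. In microglia 4 were higher and 24 lower of 40, beside 27.3% of all genes higher and 33.5% lower, with medians of -1.55 for the collagen genes tested and -0.16 for all genes. In astrocytes 6 were higher and 12 lower of 38, beside 12% of all genes higher and 19.8% lower. In neurons of striatal type 4 were higher and 9 lower of 39, beside 7.06% of all genes higher and 11.7% lower.

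**Figure D2:**
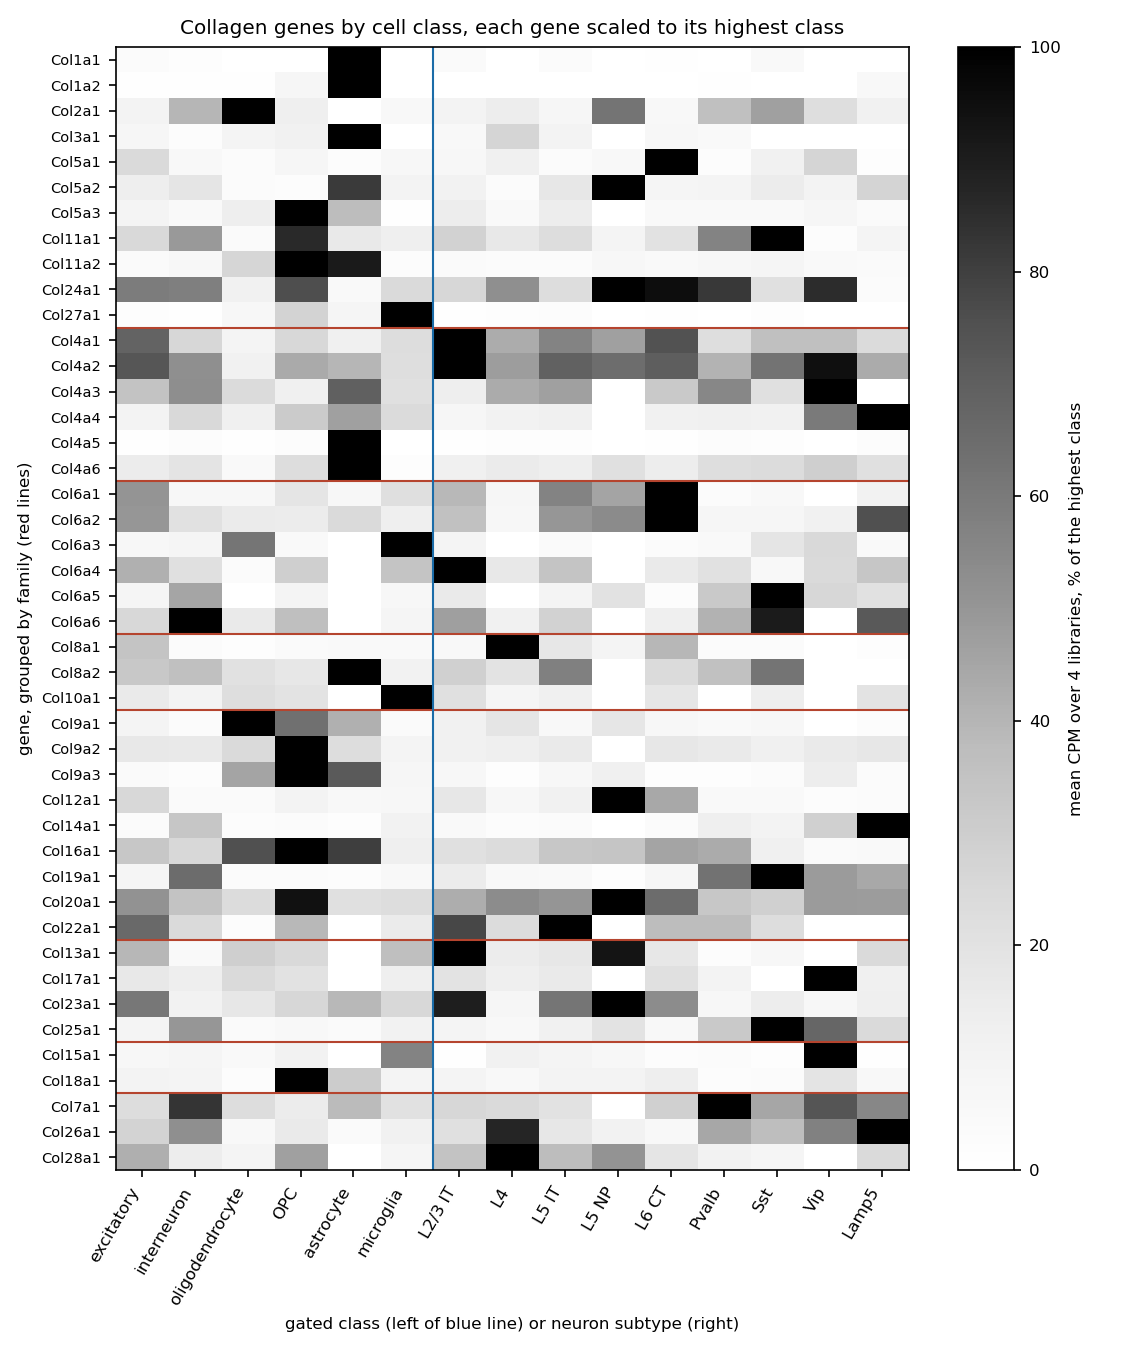
Mean CPM over 4 libraries of 44 collagen genes (rows, grouped by family between red lines) in 6 classes and 9 neuron subtypes (columns), each gene as a percentage of its highest column. Genes of 1 family peak in different columns: among type VI genes, Col6a1 and Col6a2 peak in L6 CT neurons, Col6a3 in microglia and Col6a5 in Sst interneurons.

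Col4a1 and Col4a2, the chains of nearly all basement membranes, were highest in excitatory neurons among the 6 larger classes. Col4a1 stood at 59.2, 64.9, 50.5 and 63.2 CPM there, 20.7 to 25.4 CPM in interneurons and 6.08 to 9.32 CPM in oligodendrocytes. Every excitatory library lay above every library of the other classes, and the log2 difference from all other nuclei was 1.91 (SE 0.0676, adjusted p = 1.00e-07), a 3.75-fold higher level. Col4a2 stood at 80.6, 71.8, 66.7 and 65.9 CPM in excitatory neurons, 40.3 to 58.3 CPM in interneurons, 31.1 to 53.4 CPM in OPCs and 9.82 to 13 CPM in oligodendrocytes. Its libraries did not overlap with those of the other classes either, and its log2 difference was 1.28 (SE 0.0536, adjusted p = 2.23e-07). Both genes had their lowest levels in oligodendrocytes, with log2 differences of -2.70 for Col4a1 and -2.60 for Col4a2. Outside these 6 classes, Col4a1 gave 16 of the 40847 UMIs of endothelial nuclei and 14 of the 85508 of mural nuclei. Both are larger shares than its 9477 of 158951646 in excitatory neurons. Col4a2 gave 10 UMIs in mural nuclei, also a larger share than its 11374 in excitatory neurons. The genes overlap at their 5′ ends on opposite strands, and whether the counting used strand is not given in the sources used here.

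Col4a3 and Col4a4, chains of specialised basement membranes such as that of the kidney glomerulus, were at 0 to 3.95 CPM and 0 to 21.7 CPM over the libraries of the 6 classes. Col4a4 was higher in interneurons than in all other gated nuclei together, at 3.31, 3.09, 5.71 and 5.83 CPM, with a log2 difference of 1.01 (SE 0.22, edgeR adjusted p = 0.00295). Its means were higher in astrocytes (8.5 CPM, 0 to 21.7 by library) and in OPCs (5.66 CPM), and lowest in excitatory neurons (1.84 CPM).

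Col4a5, which with Col4a6 forms a further type IV network, stood at 43.4, 35.6, 21.3 and 57.4 CPM in astrocytes and at 0 to 1.94 CPM in all libraries of the other 5 classes. No library overlapped, and the log2 difference was 5.53 (SE 0.52, adjusted p = 3.92e-25). Col4a6 stood at 4.34, 11.9, 0 and 10.4 CPM in astrocytes, with a log2 difference of 2.33 (SE 0.90, adjusted p = 0.0326). That call was lost without 3M replicate 1, 3M replicate 2 or 6M replicate 2, and 1 astrocyte library had no UMI of Col4a6.

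Genes of meningeal fibroblasts stood beside this in the 231 astrocytes. The 12 markers of VLMCs (vascular leptomeningeal cells) summed to 304, 249, 348 and 214 CPM in astrocytes, with 10 of 12 detected and Slc47a1 and Lum at 0, against 32 to 162 CPM in the other 5 larger classes and 7400 to 11400 CPM in VLMCs. Of the 33 UMIs of Col4a5 in astrocytes, 18 were in the 119 nuclei with no VLMC marker. Of the 9 UMIs of Col1a2, a type I chain that was also called higher in astrocytes, 2 were in those nuclei. So were 13 of the 36 of Col9a3, 10 of the 33 of Col11a2, 4 of the 13 of Col5a2 and 3 of the 6 of Col4a6. The 26 nuclei with 2 VLMC markers held 3 UMIs of Col4a5, 6 of Col1a2, 5 of Col9a3 and 9 of Col11a2. They held 3 each of Col5a2 and Col4a6. Depth was not matched between these nuclei, and the source of the UMIs was not tested.

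Among fibrillar genes, Col11a1, Col11a2, Col5a3 and Col24a1 had their highest means in OPCs, and Col27a1 in microglia. Col11a1, a chain of type XI, which nucleates fibrils, stood at 98.7, 109, 101 and 132 CPM in OPCs, 56.2 to 72.1 CPM in interneurons and 27.1 to 38.4 CPM in excitatory neurons. The OPC libraries lay above all others, with a log2 difference of 1.55 (SE 0.11, adjusted p = 1.65e-12). Oligodendrocytes, the cells that OPCs give rise to, had 1.52, 3.39, 8.06 and 7.1 CPM.

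Col11a2, another type XI chain, was at 37.5 to 60.8 CPM in OPCs and 27.7 to 49.7 CPM in astrocytes, which overlapped, and at 10.6 to 13.7 CPM in oligodendrocytes. Its log2 difference was 3.92 (SE 0.20, adjusted p = 3.70e-15) in OPCs and 3.29 (SE 0.44, adjusted p = 7.49e-13) in astrocytes. Col5a3, a type V chain, was at 14.5, 13.6, 26.1 and 27 CPM in OPCs, above every library of the other classes, with a log2 difference of 3.33 (SE 0.29, adjusted p = 1.72e-10). Col2a1, the cartilage collagen, was at 1.9, 3.39, 5.79 and 4.73 CPM in oligodendrocytes, a log2 difference of 2.87 (SE 0.36, adjusted p = 2.25e-05), and at 1.17 to 1.78 CPM in interneurons.

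Col27a1, a fibrillar chain known from cartilage, had the largest difference of any collagen gene in microglia. It stood at 183, 125, 95.9 and 123 CPM in microglia, 24.3 to 44.1 CPM in OPCs, 7.8 to 10.2 CPM in oligodendrocytes and 0.486 to 0.779 CPM in interneurons. The microglial libraries lay above all others, with a log2 difference of 5.14 (SE 0.14, adjusted p = 6.94e-11). A UMI of Col27a1 was seen in 684 of 2386 microglia, with at most 5 in a nucleus. With each nucleus thinned to 1000 UMIs the share with a UMI was 11.6% to 19.1% per library (23.5% to 38.3% before thinning, with 160 shallower microglia left out). In interneurons, the class with the lowest level, it was 0% after thinning and 0.417% to 0.566% before, at a median depth of 6033 to 8380 UMIs against 1819 to 2354.5 in microglia.

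Types I and III were scarce outside VLMCs. Col1a1 gave 0 UMIs in oligodendrocytes, OPCs and microglia, which allows up to 0.255, 0.675 and 0.425 CPM (3 counts over the 4 libraries, counting error only). Col5a2, a type V chain, was at 8.68, 19.8, 14.2 and 20.9 CPM in astrocytes and 7.37 CPM or below in the other classes, with a log2 difference of 2.30 (SE 0.62, adjusted p = 0.00106) that was lost without 3M replicate 2. Col24a1, a fibrillar chain known from bone, was higher in excitatory neurons by 0.84 and lower in oligodendrocytes and microglia, with log2 differences of -2.27 and -1.56. Its mean was 12 CPM in excitatory neurons and 15.4 CPM in OPCs (6.79 to 28.4 by library), which overlapped.

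FACIT genes had their highest means in different classes. Col19a1, which interneurons make and which has been tied to inhibitory synapses, stood at 392, 382, 428 and 430 CPM in interneurons, 48.5, 53.4, 64.2 and 48.5 CPM in excitatory neurons and 49.8 CPM or below in glia. Interneuron libraries did not overlap with any other, and the log2 difference was 2.99 (SE 0.0698, adjusted p = 8.77e-10). After thinning, a UMI was seen in 23.8% to 30.1% of interneurons and 0.414% to 0.848% of oligodendrocytes (57.1% to 66% and 1.4% to 2.74% before). Col14a1, which binds fibrils, was at 18.8, 20.2, 26.5 and 29.8 CPM in interneurons, above every library of the other classes, with a log2 difference of 3.15 (SE 0.0961, adjusted p = 4.19e-09).

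The type IX chains, found on cartilage fibrils, were high in the oligodendrocyte lineage. Col9a3 stood at 74.6, 46.6, 35.9 and 87.8 CPM in OPCs, 41, 20.9, 22.7 and 26.6 CPM in oligodendrocytes and 41.7 to 47.7 CPM in astrocytes, against 1.09 to 3.82 CPM in both neuron classes. Its log2 difference was 3.53 (SE 0.19, adjusted p = 1.14e-14) in OPCs and 2.70 (SE 0.13, adjusted p = 9.46e-09) in oligodendrocytes, and the libraries of these classes overlapped. It was also at 78.4, 46 and 18.2 CPM in the 3 libraries with neurons of striatal type. Tcfl5 overlaps Col9a3 on the other strand. Col9a1 was at 18.6, 13, 13.1 and 9.76 CPM in oligodendrocytes and 4.83 to 11.4 CPM in OPCs, with a log2 difference of 3.43 (SE 0.26, adjusted p = 2.48e-07) in oligodendrocytes. Col9a2 was at 10.8 to 17.3 CPM in OPCs, above all other libraries, with a log2 difference of 2.41 (SE 0.28, adjusted p = 4.90e-08).

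Col16a1 was at 33.8 to 38.4 CPM in oligodendrocytes and 40.1 to 58.8 CPM in OPCs, with log2 differences of 1.23 (SE 0.10) and 1.41 (SE 0.14). In astrocytes its mean was 38.1 CPM, with libraries that overlapped those of OPCs, and in microglia it was at 2.48 to 11.5 CPM. Col12a1, found in tendon and other dense tissue, was at 9.9 to 12.7 CPM in excitatory neurons, above all other libraries of the 6 larger classes. It was at 1.27 to 2.86 CPM in interneurons, and its log2 difference in excitatory neurons was 2.29 (SE 0.15, adjusted p = 3.10e-06). The 16 UMIs of Col12a1 in VLMCs were a larger share than the 1823 in excitatory neurons. Col20a1 was at 15.5 to 28.4 CPM in OPCs, above all other libraries, with a log2 difference of 0.78 (SE 0.21, adjusted p = 0.00386) that was lost without 6M replicate 2. Col22a1, a collagen of tissue junctions, stayed at 2.07 CPM or below and was higher in excitatory neurons by 1.93 (SE 0.22).

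Col6a1, Col6a2 and Col6a4 were higher in excitatory neurons than in interneurons and Col6a5 was lower, with direct log2 differences of 3.25, 1.43, 1.16 and -2.31, while Col6a3 had -0.26 (SE 0.62, adjusted p = 0.751). Col6a1 was at 36.6, 26.5, 28 and 24.5 CPM in excitatory neurons and 6.33, 2.18, 3.25 and 1.78 CPM in interneurons. These did not overlap, and the direct log2 difference was 3.25 (SE 0.15, adjusted p = 2.72e-08). Neurons of striatal type had 133, 96 and 104 CPM of Col6a1 and 26.7, 26 and 20 CPM of Col6a2, with log2 differences from all other nuclei of 2.13 (SE 0.16) and 1.83 (SE 0.34).

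Col6a3, the remaining classical type VI chain, had another order. It was at 9.26, 7.37, 4.56 and 11.9 CPM in microglia and 2.28, 4.52, 7.05 and 6.51 CPM in oligodendrocytes, with log2 differences of 2.92 (SE 0.39, adjusted p = 4.52e-05) and 2.66 (SE 0.31, adjusted p = 1.24e-05). Col6a5 was higher in interneurons (1.3 to 5.58 CPM, log2 difference 2.49, SE 0.30) and Col6a4 in excitatory neurons (0.748 to 2.52 CPM, 1.37, SE 0.25). Col6a6 stayed at 2.08 CPM or below and passed no test.

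Among transmembrane genes, Col25a1, whose product collects in amyloid plaques, stood at 270, 247, 278 and 308 CPM in interneurons and 44.4 to 57.9 CPM in excitatory neurons. Interneuron libraries lay above those of the rest of the 6 larger classes, with a log2 difference of 2.39 (SE 0.09, adjusted p = 1.48e-08). The 77 UMIs of Col25a1 in VLMCs were a larger share than the 7199 in interneurons. In interneurons the UMIs of Col25a1 were uneven: 913 of 3109 interneurons held one, up to 138 stood in 1 nucleus, and the richest 311 interneurons gave 81% of them. Microglia had 43.4 to 85.1 CPM in 185 of 2386 nuclei, with up to 35 UMIs in 1 nucleus. Whether doublets with neurons gave part of these was not tested.

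Col23a1 had the opposite order. It was at 64.4, 43.2, 38.5 and 49.6 CPM in excitatory neurons and 7.23, 5.45, 13 and 7.62 CPM in interneurons, without overlap, a direct log2 difference of 2.67 (SE 0.20, adjusted p = 9.20e-07). Col13a1, a component of the neuromuscular junction, was higher in excitatory neurons by 0.92 (SE 0.32, adjusted p = 0.0303), a call lost without either 3M replicate. Col17a1, the hemidesmosome collagen, passed no test.

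The multiplexins, whose end fragments can be released (endostatin from Col18a1), were high in different glia. Col18a1 was at 33.8, 48.5, 20.4 and 25.7 CPM in OPCs and 1.52, 0, 1.01 and 0.296 CPM in oligodendrocytes, and its direct log2 difference was 5.02 (SE 0.41, adjusted p = 3.50e-07). In astrocytes the mean of Col18a1 was 9.86 CPM, with libraries that overlapped those of OPCs. Slc19a1 overlaps Col18a1 on the other strand. Col15a1 was at 40.6, 26.2, 41.1 and 34.2 CPM in microglia and at 8.98 CPM or below in the other classes. These did not overlap, the log2 difference was 2.84 (SE 0.18, adjusted p = 1.05e-07), and 233 microglia held a UMI, with at most 2 in a nucleus.

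Of the short-chain genes, Col8a1 was at 12.4, 9.53, 20.8 and 19.3 CPM in excitatory neurons and 7.91 CPM or below in the rest of the 6 larger classes. Among these the libraries did not overlap, and the log2 difference was 2.74 (SE 0.28, adjusted p = 4.01e-05). VLMCs held 54 UMIs of Col8a1 and endothelial nuclei 19, both larger shares of the UMIs of the class than in excitatory neurons. Col10a1, known from growth plate cartilage, was at 0, 4.1, 3.73 and 1.49 CPM in microglia, a log2 difference of 2.36 (SE 0.53, adjusted p = 0.00235), and it overlaps Nt5dc1 on the other strand. Col8a2 passed no test. Col26a1 was at 80.4 to 91.9 CPM in interneurons, above the rest of the 6 larger classes, and at 41.4 to 51.8 CPM in excitatory neurons. The 26 UMIs of Col26a1 in VLMCs were a larger share than the 2248 in interneurons. Col7a1, the anchoring fibril collagen, was higher in interneurons (5.19 to 7.13 CPM, log2 difference 1.79, SE 0.16) and Col28a1 in excitatory neurons (1.57 to 3.73 CPM, 1.80, SE 0.23). The mean of Col28a1 was 2.56 CPM in excitatory neurons and 2.85 CPM in OPCs, with overlapping libraries.

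**Figure D3:**
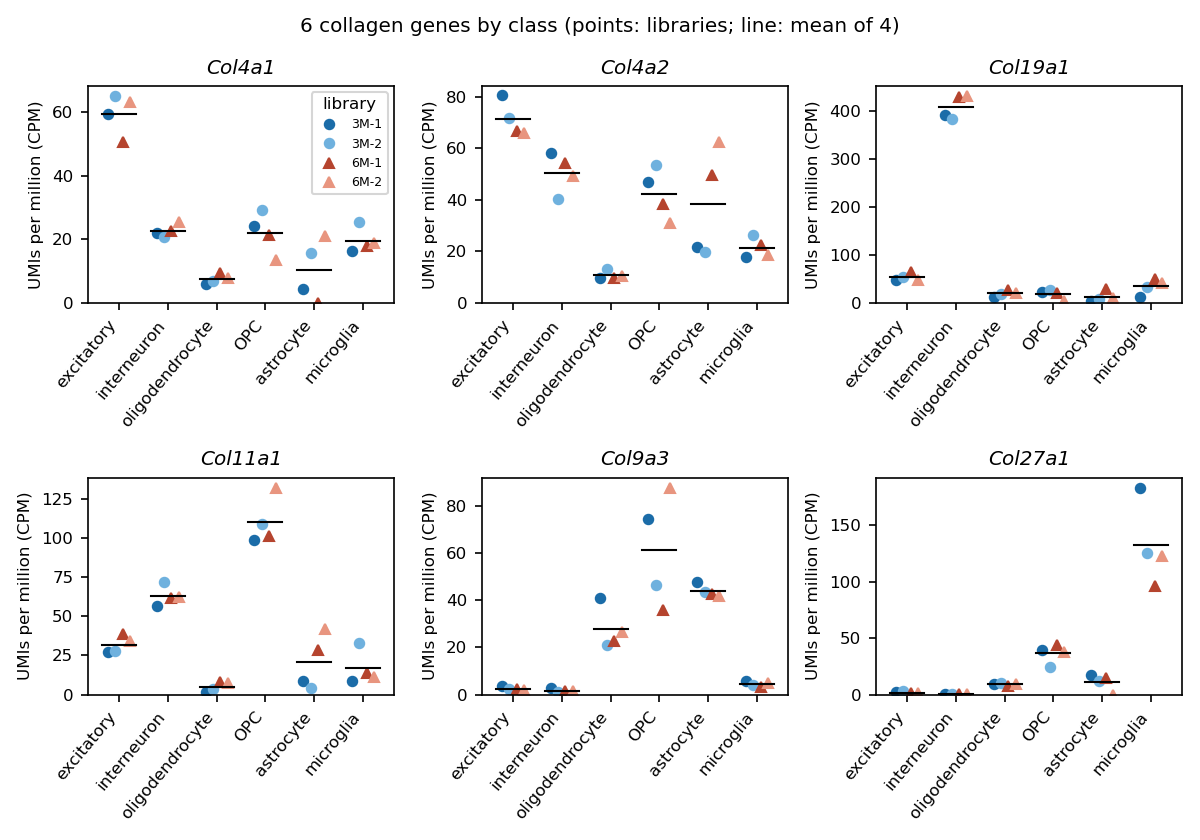
CPM (vertical axes) of 6 collagen genes in 6 classes, with a point for each library (circles 3M, triangles 6M) and a line at the mean of 4. Col4a1 and Col4a2 are highest in excitatory neurons, Col19a1 in interneurons (382 to 430 CPM), Col11a1 in OPCs (98.7 to 132 CPM) and Col27a1 in microglia (95.9 to 183 CPM), while the OPC points of Col9a3 overlap with those of oligodendrocytes and of astrocytes.

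OPCs and oligodendrocytes were also compared directly. 12 collagen genes were higher in OPCs and 0 lower of 17 tested by edgeR, beside 26.2% of all genes higher and 23.1% lower, with 13 at an unadjusted p under 0.05. After Col18a1, the largest log2 differences were 4.25 (SE 0.23) for Col11a1, 2.72 (SE 0.32) for Col5a3, 2.61 (SE 0.43) for Col24a1 and 1.93 (SE 0.23) for Col27a1. Col4a2 and Col4a1 were higher in OPCs by 1.84 and 1.38. Between excitatory neurons and interneurons 18 were higher and 10 lower of 37 in excitatory neurons, beside 27.3% of all genes higher and 28.5% lower.

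Excitatory neurons were split by layer markers and each subtype was compared with the other excitatory subtypes. In layer 6 corticothalamic (L6 CT) neurons 8 collagen genes were higher and 10 lower of 31 tested, beside 15.5% of all genes higher and 18.5% lower. Col5a1, a type V chain, stood at 111, 75.8, 75.5 and 79.7 CPM there and at 13.2 CPM or below in the L2/3 IT, L4, L5 IT and L5 NP neurons. The libraries did not overlap, the log2 difference was 4.07 (SE 0.0836, adjusted p = 1.10e-10), and 1187 of 2719 L6 CT nuclei held a UMI. Col6a1 (50.8 to 66 CPM, log2 difference 1.19) and Col6a2 (12.8 to 17.4 CPM, 1.32) were both higher in L6 CT, as were Col24a1 (1.61) and Col12a1 (1.66). The layer 6b (L6b) neurons, 28 nuclei in all, were too few for a test. They gave 49 UMIs of Col24a1 in 409766, a larger share than the 507 in 26258306 of L6 CT. They also gave 190 UMIs of Col19a1, from 25 nuclei.

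In L4 neurons 4 were higher and 12 lower of 32, beside 12.1% of all genes higher and 13.8% lower. Col26a1 was at 148, 119, 134 and 177 CPM in L4 and at 47.5 CPM or below in the other 4 subtypes, a log2 difference of 2.61 (SE 0.14, adjusted p = 1.28e-09). Col8a1 was at 29.9, 16.6, 80.2 and 53.6 CPM in L4, which overlapped the 15.5 to 19.4 CPM of L6 CT, with a log2 difference of 2.23 (SE 0.21, adjusted p = 4.83e-07). Col23a1 and Col6a1 were lower in L4, with log2 differences of -3.19 (SE 0.20) and -3.14 (SE 0.22).

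In L2/3 IT neurons 10 were higher and 9 lower of 33, beside 17.3% of all genes higher and 16.8% lower. Col4a1 (84.5, 92.9, 65.5 and 105 CPM) and Col4a2 (110, 100, 83.8 and 95.6 CPM) were both higher there, by 0.70 (SE 0.0633) and 0.61 (SE 0.0594), and both were lower in L4, with log2 differences of -0.78 and -0.70. Col13a1 and Col6a4 had the largest differences, at 2.47 (SE 0.31) and 2.07 (SE 0.26) from 1.23 to 5.61 and 1.44 to 5.61 CPM.

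In L5 IT neurons 6 were higher and 6 lower of 30, beside 10.2% of all genes higher and 9.45% lower. Col15a1 was higher there by 1.71 (SE 0.21) and Col5a1 lower, with a log2 difference of -4.04 (SE 0.17). In L5 NP neurons, with 10 to 30 nuclei per library, 3 were higher and 2 lower of 28, beside 0.796% of all genes higher and 1.92% lower. Col12a1 stood at 72.9, 40, 58.6 and 12.5 CPM in L5 NP, a log2 difference of 2.07 (SE 0.45, adjusted p = 3.89e-04) that was lost without 3M replicate 1. Its libraries overlapped the 15 to 25.6 CPM of L6 CT.

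Interneuron subtypes differed from each other in FACIT and transmembrane genes. In Sst interneurons 6 were higher and 4 lower of 13, beside 9.4% of all genes higher and 9.82% lower. Col19a1 stood at 656, 600, 610 and 640 CPM in Sst, above the 178 to 463 CPM of the Pvalb, Vip and Lamp5 libraries, with a log2 difference of 0.80 (SE 0.0732, adjusted p = 7.48e-09). Col25a1 was higher in Sst by 1.66 (SE 0.13, adjusted p = 3.78e-10). Col11a1 was at 126, 148, 93.4 and 145 CPM in Sst, 65.3 to 86 CPM in Pvalb and 0 to 8.73 CPM in Vip interneurons, with log2 differences of 1.15 (SE 0.11) in Sst and -4.44 (SE 0.47) in Vip.

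In Pvalb interneurons 3 were higher and 10 lower of 15, beside 13.6% of all genes higher and 14.4% lower. Col16a1 was at 18.2, 19.3, 23.1 and 21.6 CPM in Pvalb and 7.7 CPM or below in the other 3 subtypes, a log2 difference of 2.33 (SE 0.23, adjusted p = 5.59e-09). In Lamp5 interneurons 3 were higher and 5 lower of 13, beside 12.7% of all genes higher and 13.1% lower. Col14a1 was at 70, 66.5, 83.1 and 65.7 CPM in Lamp5 and 34.4 CPM or below in the other 3, a log2 difference of 2.96 (SE 0.22, adjusted p = 8.95e-12). Col4a4 and Col26a1 were also higher in Lamp5, by 2.72 (SE 0.38) and 1.20 (SE 0.11).

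In Vip interneurons 3 were higher and 3 lower of 14, beside 6.79% of all genes higher and 7.81% lower. Col15a1 was at 73.1, 68.7, 78.5 and 30.8 CPM in Vip and 3.67 CPM or below in the other 3 subtypes, a log2 difference of 5.49 (SE 0.44, adjusted p = 6.44e-18) from 59 UMIs in 26 of 136 nuclei. Col5a1 was at 34.8, 28.6, 13.1 and 15.4 CPM and higher by 2.82 (SE 0.53), and Col4a2 was higher by 1.14 (SE 0.21).

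**Figure D4:**
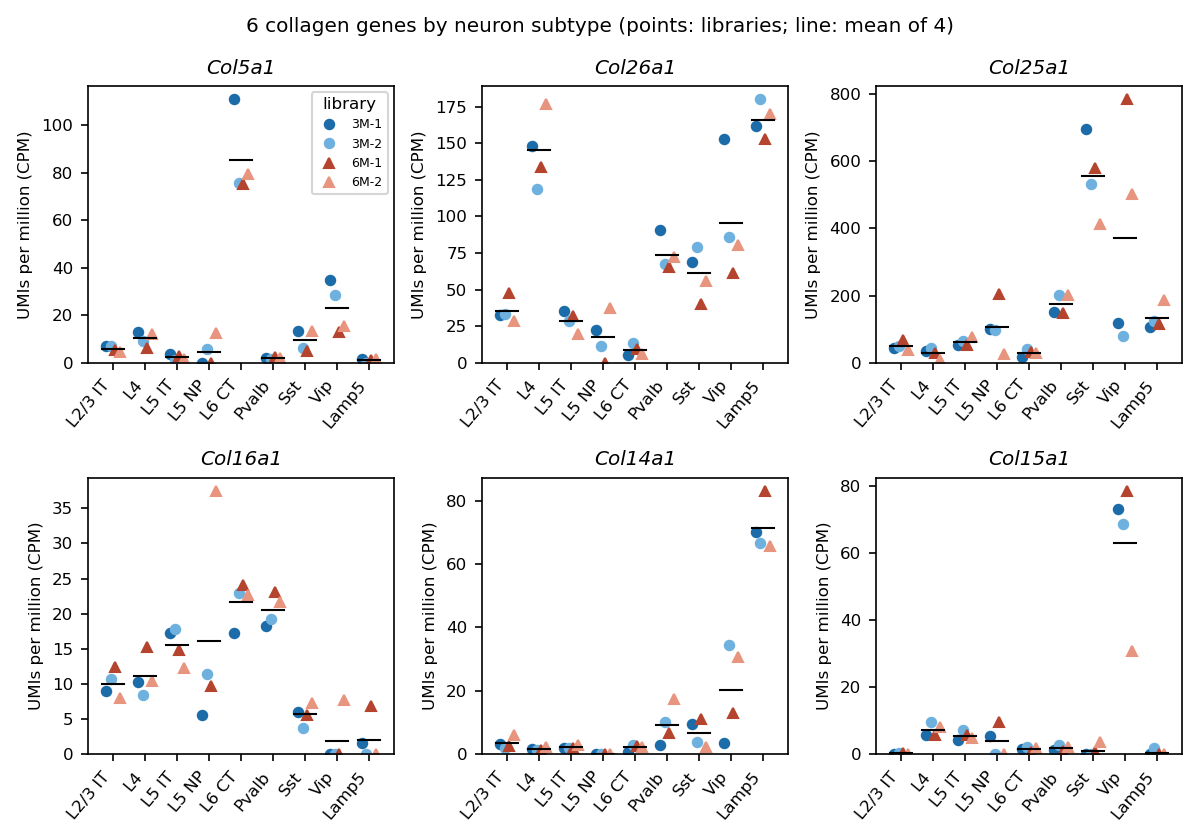
CPM (vertical axes) of 6 collagen genes in 9 neuron subtypes, with a point for each library (circles 3M, triangles 6M) and a line at the mean of 4. Col5a1 is highest in L6 CT neurons (75.5 to 111 CPM), the mean of Col26a1 in Lamp5 and L4 (in L4 and Lamp5, 119 to 177 and 153 to 180 CPM), Col14a1 in Lamp5 and Col15a1 in Vip interneurons (30.8 to 78.5 CPM), and the points of Col25a1 in Vip lie apart by age.

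The vascular and meningeal classes were small, and the tests of VLMCs, mural cells and macrophages rest on the 6M libraries, the only ones with at least 10 such nuclei. In VLMCs, the fibroblasts of meninges and large vessels, 11 collagen genes were higher and 1 lower of 42 tested, beside 2.2% of all genes higher and 6.03% lower. Col1a2 gave 11, 7, 14 and 6 UMIs in 9, 6, 17 and 16 nuclei, which is 300 CPM over all libraries against 0.0629 CPM in excitatory neurons. Col1a1 gave 4, 0, 10 and 5 UMIs and Col3a1 2, 0, 4 and 6. Col4a5 gave 13, 4, 29 and 12 UMIs and Col4a6 18, 6, 9 and 14. The log2 differences were 9.37 (SE 1.14, adjusted p = 7.27e-14) for Col1a2 and 8.45 (SE 0.63, adjusted p = 2.80e-38) for Col4a5, and Col4a6 passed with an adjusted p of 4.90e-12.

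The 48 VLMCs were not uniform in collagen. A UMI of Col1a1, Col1a2 or Col3a1 was in 30, one of Col4a5 or Col4a6 in 26, and both in 21. Col25a1, higher in this class by 2.34 (SE 0.46), came from 12 nuclei, of which 1 held Col4a5 or Col4a6 and 5 held Col1a1, Col1a2 or Col3a1, and the richest 3 nuclei gave 56 of its 77 UMIs. Col8a1 (0, 14, 28 and 12 UMIs) came from 10 nuclei, of which 1 held Col4a5 or Col4a6. With 4 markers required, the calls of Col3a1, Col5a2, Col12a1, Col13a1, Col19a1 and Col23a1 in VLMCs were lost.

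In mural cells 1 collagen gene was higher and 2 lower of 40, beside 1.55% of all genes higher and 5.88% lower. Col4a3 gave 0, 3, 5 and 3 UMIs in the 53 mural nuclei, a log2 difference of 6.66 (SE 1.45, adjusted p = 1.29e-04). In macrophages 0 were higher and 1 lower of 39 by edgeR, with 4 at an unadjusted p under 0.05, beside 1.82% of all genes higher and 5.01% lower. The 21 endothelial nuclei allowed no test. Of these, 19 held 16 UMIs of Col4a1 in 9 nuclei, while the other 2, with 3 endothelial markers each against a median of 8, held all 19 UMIs of Col9a3 and 19 of Col8a1.

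Age was compared within each class, 2 libraries at 6 months against 2 at 3 months, by edgeR's quasi-likelihood test over all genes of the class. Of 247 tests of a collagen gene in 15 classes and subtypes, 1 passed, and 34 (13.8%) had an unadjusted p under 0.05, beside 5.1% of the tests over all genes. Nuclei of a subtype also stand in its parent class, and all tests share the 4 libraries. The tests are therefore not independent, and these shares do not show an excess of collagen change by age. DESeq2 called 3. Between 2 and 41 collagen genes passed the low-count filter in a class. Over all genes, 17 of 169172 tests passed: 0.00521% of genes rose in excitatory neurons, 0.0154% in oligodendrocytes, 0.0268% in L5 IT neurons and 0.154% in Vip interneurons, 0.066% fell in Vip interneurons, and 0% passed elsewhere. Without 3M replicate 2 the all-gene count was 10092 and the collagen count 25, and without 3M replicate 1 they were 1262 and 5. Summed over all nuclei of a library, the 3M replicates also lay farther apart than the 6M replicates. The chi-square per degree of freedom over genes was 56.1 against 19.9. These sums take in differences in cell composition between libraries and do not measure the spread within a class.

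The gene that passed was Col25a1 in Vip interneurons. Its UMIs there numbered 34, 14, 180 and 131 from 38, 32, 31 and 35 nuclei, which is 118, 80.2, 785 and 504 CPM. Both 6M libraries lay above both 3M libraries, with a log2 fold change of 2.64 (SE 0.30, adjusted p = 1.07e-04). Of the 5 collagen genes tested there it alone passed. The UMIs came from few nuclei, since 4, 4, 10 and 7 held one or more and 2, 0, 6 and 6 held 10 or more.

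The other interneuron subtypes did not show this order. Col25a1 stood at 697, 533, 580 and 413 CPM in Sst, 151, 201, 148 and 202 CPM in Pvalb and 107, 126, 116 and 186 CPM in Lamp5 interneurons, and the ages overlapped in each. The age change in Vip exceeded that in the other interneuron subtypes by 2.67 on the log2 scale (SE 0.281, edgeR adjusted p = 2.37e-17), in a fit chosen after the age results were seen. In these nuclei the 6 Vip markers summed to 1410, 1990, 1410 and 1580 CPM and the 6 Sst markers to 115, 195, 127 and 139 CPM, with Crhbp, Pdyn and Chodl at 0. Sst itself was at 0, 17.2, 0 and 11.5 CPM, and the 6 Pvalb markers summed to 929, 578, 641 and 581 CPM. The Sst marker Grin3a was higher at 6M, as Col25a1 was, at 3.48, 11.5, 48 and 42.3 CPM. Elfn1, the Sst marker with the most UMIs there, was at 111, 166, 78.5 and 84.7 CPM. The part of any of these in the result was not tested.

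The call of Col25a1 depended on the gate. With 3 Vip markers and 4 interneuron markers required, in place of 2 and 3, 28, 12, 17 and 26 nuclei remained, with 145, 134, 449 and 199 CPM, and the log2 fold change was 1.13 (edgeR adjusted p = 0.346). With each nucleus' own class at least 2 times every other in markers, in place of 1.5 times, it was 4.44 (adjusted p = 0.0475) from 18, 21, 11 and 12 nuclei. With the batch number as a replicate block it was 2.69 (adjusted p = 8.43e-04), and with the numbers crossed between ages in a block it was 2.60 (adjusted p = 0.303) and no longer passed.

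**Figure D5:**
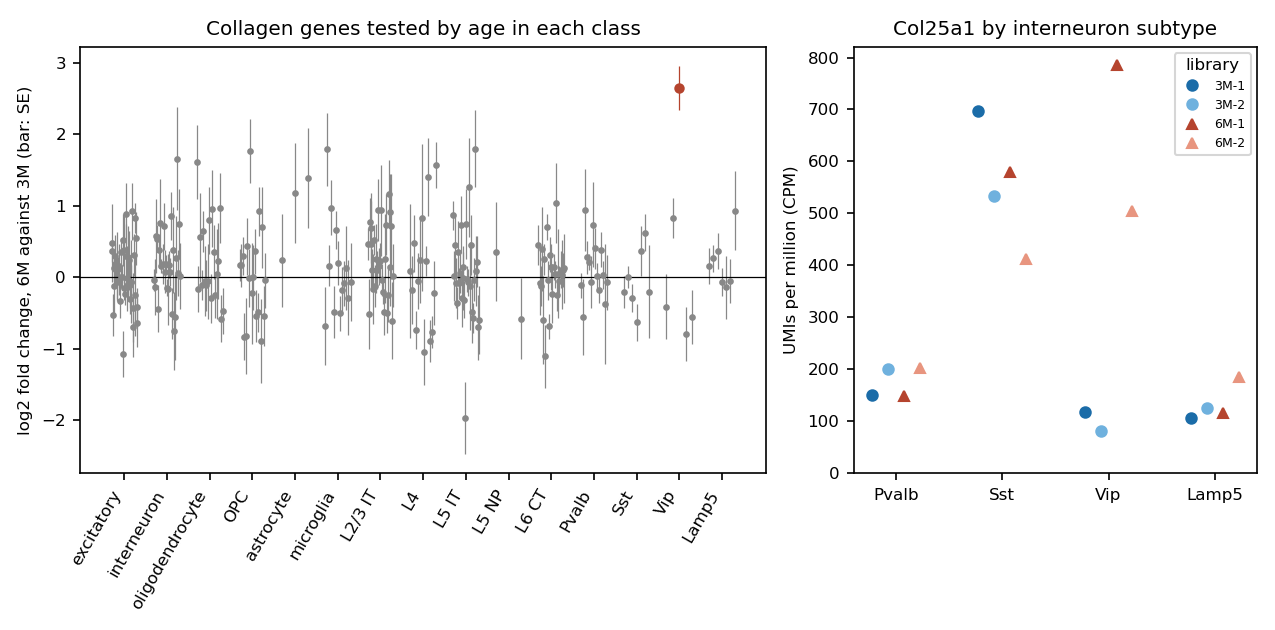
Left, log2 fold change at 6M against 3M (bars: SE) of each collagen gene tested in 15 classes and subtypes, with the gene that passed in red (Col25a1 in Vip interneurons, 2.64). Right, CPM of Col25a1 by library (circles 3M, triangles 6M) in 4 interneuron subtypes, in which the ages lie apart in Vip and overlap in Pvalb, Sst and Lamp5.

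Some genes had ages that did not overlap and did not pass the test, and examples follow. With 2 libraries per age, values often separate by age with no age effect. How many genes separated was not counted, so these values are no sign of an age change. Col8a1 in L4 neurons was at 29.9, 16.6, 80.2 and 53.6 CPM, a log2 fold change of 1.57 (SE 0.32, adjusted p = 0.309) by edgeR. Col14a1 in microglia was at 3.56, 3.28, 14.5 and 9.41 CPM, with 1.79 (SE 0.51, adjusted p = 0.93). Col24a1 in OPCs was at 6.91, 6.79, 19.6 and 28.4 CPM, with 1.77 (SE 0.45, adjusted p = 0.998). Col27a1 in microglia was at 183, 125, 95.9 and 123 CPM, with -0.51 (SE 0.25, adjusted p = 0.993).

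Genes that make, process and bind collagen were counted by list. Of 242 tests by age of 31 synthesis and processing genes, 95 of 11 receptor genes and 77 of 13 basement membrane partners, 0 passed by edgeR, with 16, 2 and 14 at an unadjusted p under 0.05 (6.61%, 2.11% and 18.2%, beside 5.1% over all genes). These tests too share nuclei and libraries and are not independent. Between classes, microglia had 10 higher and 13 lower of 28 synthesis genes tested, beside 27.3% of all genes higher and 33.5% lower. P3h2, a prolyl 3-hydroxylase, was higher there by 3.36 (SE 0.15), Loxl3, a lysyl oxidase family member, by 3.92 (SE 0.21) and Plod1, a lysyl hydroxylase, by 2.82 (SE 0.20). Of receptors, microglia had 4 higher and 5 lower of 10, with Lair1, an inhibitory collagen receptor of immune cells, higher by 6.90 (SE 0.17) and Mrc2, which takes up collagen, by 2.68 (SE 0.16).

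Oligodendrocytes had 7 higher and 10 lower of 27 synthesis genes, beside 31.9% of all genes higher and 35.6% lower, with Plod1 higher by 4.13 (SE 0.16), and 2 higher and 8 lower of 10 receptors, with Ddr1, a collagen receptor kinase, higher by 3.75 (SE 0.12). OPCs had 7 higher and 5 lower of 27 synthesis genes, beside 18.5% of all genes higher and 23% lower, with Loxl3 higher by 3.91 (SE 0.28). Interneurons had 8 higher and 10 lower of 26 synthesis genes, beside 27.1% of all genes higher and 29.2% lower, and 2 higher and 4 lower of 10 receptors, with Ddr2, the other collagen receptor kinase, higher by 3.60 (SE 0.19). Excitatory neurons had 8 higher and 11 lower of 28 synthesis genes, beside 31.9% of all genes higher and 35.8% lower, with P4ha1, a prolyl 4-hydroxylase subunit, higher by 0.79 (SE 0.0618), and 4 higher and 6 lower of 10 receptors, with the integrin Itga11 higher by 1.24 (SE 0.065). VLMCs had 3 of 28 synthesis genes higher, beside 2.2% of all genes, among them Serpinh1, the collagen chaperone, higher by 7.14 (SE 1.84). Of basement membrane partners VLMCs had 6 higher and 1 lower of 13, one of which, Lama1, was a gate marker, and Fn1 was higher by 5.59 (SE 0.74).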

How the data were processed

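The files analysed hold UMI counts per gene and nucleus, which the authors made with Cell Ranger (7.0.0 in the file header) against mm10 before they were deposited. The submitters' processing notes also name Seurat, and use of strand is not given in the sources used here. Nuclei with over 7000 genes or over 1% mitochondrial UMIs were left out, following the authors' filter, and no doublet caller was run on the sorted singlets. The paper treated microglial clusters with markers such as St18 or Rbfox3 as doublets and left them out, a step that was not repeated. A class needed at least 3 of its 12 markers and 1.5 times the markers of every other class, and a neuron subtype 2 of 6. UMIs were summed per library and class where at least 10 nuclei stood. Sums were tested with edgeR 4.0.16 in R 4.3.3 (TMM factors, filterByExpr, quasi-likelihood F test, Benjamini-Hochberg threshold 0.05). The SE beside an edgeR log2 difference was worked back from the test, as the size of the difference divided by the square root of F. The test was also run on simulated counts with a fixed spread between libraries, which need not match that of the data. There, 45% of 2-fold and 92% of 4-fold changes by age were recovered in microglia, and 80% and 100% in excitatory neurons. The genes changed were drawn only from those above a minimum count, so these shares do not cover collagen genes with few UMIs. Classes were compared with the library as a block, and ages without one.

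Members and gene lists were chosen with earlier results of these data known. Every collagen gene with 50 or more UMIs is named. The list genes named are examples of those that passed as higher, at most 4 per list and comparison. They are not always those with the smallest adjusted p, and lower list genes are given by count only. Gene positions are from GENCODE on GRCm38, and promoter sequences from RefSeq. Batch numbers in the labels pair replicates of both ages. Each label names a Gclc-KO mouse and a replicate number, and the paper gives n = 2 at each age. Pooling is not mentioned, and p-values measure the spread between these libraries. Deviations of same-numbered samples correlated at -0.134 to 0.0194 over 15 classes. Alternatives were DESeq2 1.42.0, RLE factors, no low-count filter, other gates, all deposited nuclei, each library left out, and the block.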

Additional observations from a re-analysis of the deposited data

Results flagged for a closer look

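The age change of Col25a1 in Vip interneurons differed from that in the other interneuron subtypes by 2.67 on the log2 scale (SE 0.281, edgeR interaction test, adjusted p = 2.37e-17). It was brought up because this difference passed. The fit was chosen after the age results were seen and used the same Vip counts, so it adds no independent support to the age call. Other gates and blocks were not run for it. Both 6M libraries were higher in Vip (118, 80.2, 785 and 504 CPM), from nuclei that numbered 38, 32, 31 and 35. The nuclei with 10 or more of its UMIs numbered 2, 0, 6 and 6. The age change within Vip did not pass with the stricter gate minimum (1.13, edgeR adjusted p = 0.346) or the crossed block (2.60, adjusted p = 0.303). In the interaction fit Col25a1 was the 1 collagen gene that passed among 446 such tests in 15 comparisons, of which 49 (11%) had an unadjusted p under 0.05, beside 6.22% over all genes. The comparisons share nuclei and libraries, so these tests are not independent.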

How the results depend on the processing

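By age, 1 collagen call was made, and the same one with RLE factors, all deposited nuclei, the wider gate margin or the replicate block, which changed no collagen call. DESeq2 gave 3, no low-count filter 5, the stricter gate minimum 0 and the crossed replicate block, added after the data were seen, 2. Leaving out a replicate gave 1 to 25 (25 without 3M replicate 2, 5 without 3M replicate 1, 2 without 6M replicate 1), and Col25a1 in Vip passed in each, at 2.29 to 2.99. Under the crossed block Col25a1 was at 2.60 (edgeR adjusted p = 0.303), where 565 calls by age were made over all genes. Without that block they numbered 17, against 535 by DESeq2, 763 with no filter, 149 with the block and 10092 without 3M replicate 2. Between classes 186 calls became 179 to 189 with all libraries kept. With a library left out they became 146 to 162, where 3 or 4 of the comparisons could not be fitted. Between subtypes 107 became 79 (without the library block) to 127, and in the direct comparisons 40 became 37 to 46. The sign turned for Col5a2 in L5 NP without 6M replicate 1 (-7.74) and with the stricter gate minimum (-7.29), against 2.62, with 3.23 the highest without a replicate, and for Col19a1 in Pvalb at gate margin 2 (0.0317 against -0.21). At that margin the summed collagen level was 509 CPM in excitatory neurons, 194 in oligodendrocytes and 375 in microglia. The cause was not tested. Few nuclei limit the vascular, astrocyte, L5 NP and Vip values, and 2 libraries per age limit the age test.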
